A study of Mus musculus with 30 samples.

Results

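The 10 core circadian clock genes of the mouse were described across white fat cells: Arntl (also named Bmal1), Clock, Npas2, Per1, Per2, Per3, Cry1, Cry2, Nr1d1 and Nr1d2. They were chosen by name, as the known parts of the clock, and all 10 were found among the 35120 genes of the count table. RNA was sequenced from 30 libraries in 6 groups, to ask what loss of β-catenin, the transcriptional partner in canonical Wnt signalling encoded by Ctnnb1, does to adipose tissue. Adipocytes that float after collagenase digestion were compared between control mice labelled Ctnnb1fl/fl and mice labelled Ctnnb1AdKO, in males (6 control and 5 knockout libraries) and in females (6 and 6). Stromal-vascular cells (SVC), the pellet of preadipocytes, immune, endothelial and other cells, came from males alone (3 control and 4 knockout libraries). All groups carry the floxed Ctnnb1 allele by their labels, which do not name the Cre driver, the exons removed, the strain or the age in weeks and state no hour of collection. They give the same epididymal and posterior subcutaneous depots for every library, so the depot of each is not known.

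Total counts per library lay between 20484836 and 22209603. The labelled fractions matched their markers: the summed level of 8 adipocyte markers was 27987 to 48790 CPM (reads per 1000000 of the library total) over the adipocyte libraries and 877 to 2055 CPM over the SVC libraries. Ctnnb1 itself showed no fall with the label knockout. It was 308 to 368 CPM in male knockout adipocytes and 308 to 341 CPM in male controls (log2 fold change -0.03, SE 0.0786, adjusted p = 0.919 in edgeR's quasi-likelihood test), and 283 to 367 against 291 to 359 CPM in females (log2 0.11, SE 0.0750, adjusted p = 0.670). Whether the counted reads lie inside the deleted exons is not given in the sources used here, so this gene does not check the labels, and "knockout" below means the label.

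The clock is a transcriptional feedback loop that runs in nearly every cell, fat cells included. ARNTL pairs with CLOCK, or with its relative NPAS2, and binds E-box sequences to switch on the Per and Cry genes, whose proteins return to the nucleus and repress that pair. The same pair switches on Nr1d1 and Nr1d2, which encode the REV-ERB repressors, and these shut off Arntl and Npas2 in competition with the ROR activators. In fat the loop is known for timing lipid storage and release and adipokine secretion. Levels of its genes can depend on the time of day, which is not recorded for these libraries.

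The regulatory letters this loop works through could be read in RefSeq promoters of the mouse build GRCm38.p6, each running from 250 bases before to 50 bases after a transcription start. Of the 10 members 9 had an entry there, with 13 promoters among them, and Per2 had none. Of the promoters below, that of Arntl is shown because this gene had the largest knockout estimate, those of Per1 and Cry1 because they hold the canonical E-box, and that of Per3 because it holds the D-box bound by DBP, TEF and HLF, whose mRNAs are described with it. Capitals mark the motif.
Arntl: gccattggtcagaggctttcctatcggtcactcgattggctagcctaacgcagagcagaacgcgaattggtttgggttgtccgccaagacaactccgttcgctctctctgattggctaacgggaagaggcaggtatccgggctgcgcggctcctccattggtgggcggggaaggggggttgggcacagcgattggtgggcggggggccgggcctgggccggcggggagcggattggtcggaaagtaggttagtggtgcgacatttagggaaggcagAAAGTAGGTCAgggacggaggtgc
Per1: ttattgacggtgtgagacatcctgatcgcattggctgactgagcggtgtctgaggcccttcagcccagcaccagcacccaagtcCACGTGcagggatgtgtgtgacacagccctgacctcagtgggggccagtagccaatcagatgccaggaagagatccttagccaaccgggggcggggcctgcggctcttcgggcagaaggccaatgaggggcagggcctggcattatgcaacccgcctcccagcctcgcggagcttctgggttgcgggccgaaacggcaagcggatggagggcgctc
Cry1: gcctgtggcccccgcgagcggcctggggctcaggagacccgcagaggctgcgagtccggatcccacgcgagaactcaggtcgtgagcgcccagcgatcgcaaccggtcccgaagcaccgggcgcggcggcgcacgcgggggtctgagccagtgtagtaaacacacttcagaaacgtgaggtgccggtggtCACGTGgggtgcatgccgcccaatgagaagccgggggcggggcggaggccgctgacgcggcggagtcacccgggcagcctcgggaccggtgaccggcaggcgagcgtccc
Per3: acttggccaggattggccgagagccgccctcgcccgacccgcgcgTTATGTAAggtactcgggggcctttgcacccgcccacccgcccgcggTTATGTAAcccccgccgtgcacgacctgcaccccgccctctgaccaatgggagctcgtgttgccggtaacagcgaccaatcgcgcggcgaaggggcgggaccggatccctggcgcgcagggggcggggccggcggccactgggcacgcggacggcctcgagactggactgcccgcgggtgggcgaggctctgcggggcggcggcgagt

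The Arntl promoter lies at chr7:113207261-113207560 on the forward strand, and its capitals are a match to the ROR response element, at positions 26 to 36 with the start site as 0. Such a match was in 0.384% of all 32851 promoters, and a second Arntl start listed there had none. The Per1 promoter, chr11:69098699-69098998 on the forward strand, and the Cry1 promoter, chr10:85185005-85185304 on the reverse strand, each hold the E-box CACGTG, at -166 to -161 and at -60 to -55. An E-box was in 7.15% of all promoters. The Per3 promoter, chr4:151044616-151044915 on the reverse strand, holds 2 copies of the D-box (TTATGTAA or TTACGTAA), at -205 to -198 and -158 to -151, a motif found in 1.06% of all promoters. A weaker E-box form, CACGTT, which differs from CACGTG in its last letter so that no hexamer counted as both, was in 4.68% of all promoters and in those of Cry1, Cry2 and Nr1d1. The cAMP response element TGACGTCA was in 1.79% of all promoters and in 0 of the 13. Both strands were searched, a match describes letters in the window and not a bound site, and no match says nothing about the factor.

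Levels of different genes were compared per length, as CPM per kilobase of annotated exon. In male control adipocytes Nr1d1 stood far above the other members at 255 ± 53.4 CPM per kilobase (SD, n = 6). Cry2 followed with 21.1 ± 3.15, then Per1 with 13.0 ± 3.82, Per2 with 10.2 ± 1.65 and Nr1d2 with 9.87 ± 1.36, the last 3 within their spread of each other. Per3 (4.55 ± 0.564) and Cry1 (4.40 ± 0.932) did not differ beyond their spread either. The activators were at the bottom of the order: Clock at 1.95 ± 0.323, Arntl at 0.286 ± 0.0682 and Npas2 at 0.0362 ± 0.0174 CPM per kilobase, the last resting on 1 to 6 reads per library. In female control adipocytes Nr1d1 (185 ± 39.9, n = 6), Cry2 (11.9 ± 1.93) and Per1 (7.86 ± 1.33) again led, Per1 within its spread of Nr1d2 (6.95 ± 0.565), and Npas2 (0.880 ± 0.366) was again last. Clock (4.15 ± 0.603) stood beside Per2 (3.81 ± 1.53) there, and Arntl (1.41 ± 0.514) beside Per3 (1.12 ± 0.413), each pair within its spread, as were Per3 and Npas2. In male control SVC, Nr1d1 (32.4 ± 6.81, n = 3) and Nr1d2 (29.2 ± 6.06) did not differ beyond their spread, followed by Per1 (19.3 ± 5.85), Cry1 (12.6 ± 1.91) and Cry2 (11.7 ± 4.11), with Arntl (1.74 ± 0.299) and Npas2 (0.468 ± 0.136) last. Of the exonic bases of Nr1d1, 8.55% are shared with Thra, a thyroid hormone receptor gene on the opposite strand with a median of 119 CPM, and whether the authors counted reads by strand is not given in the sources used here.

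**Figure D1:**
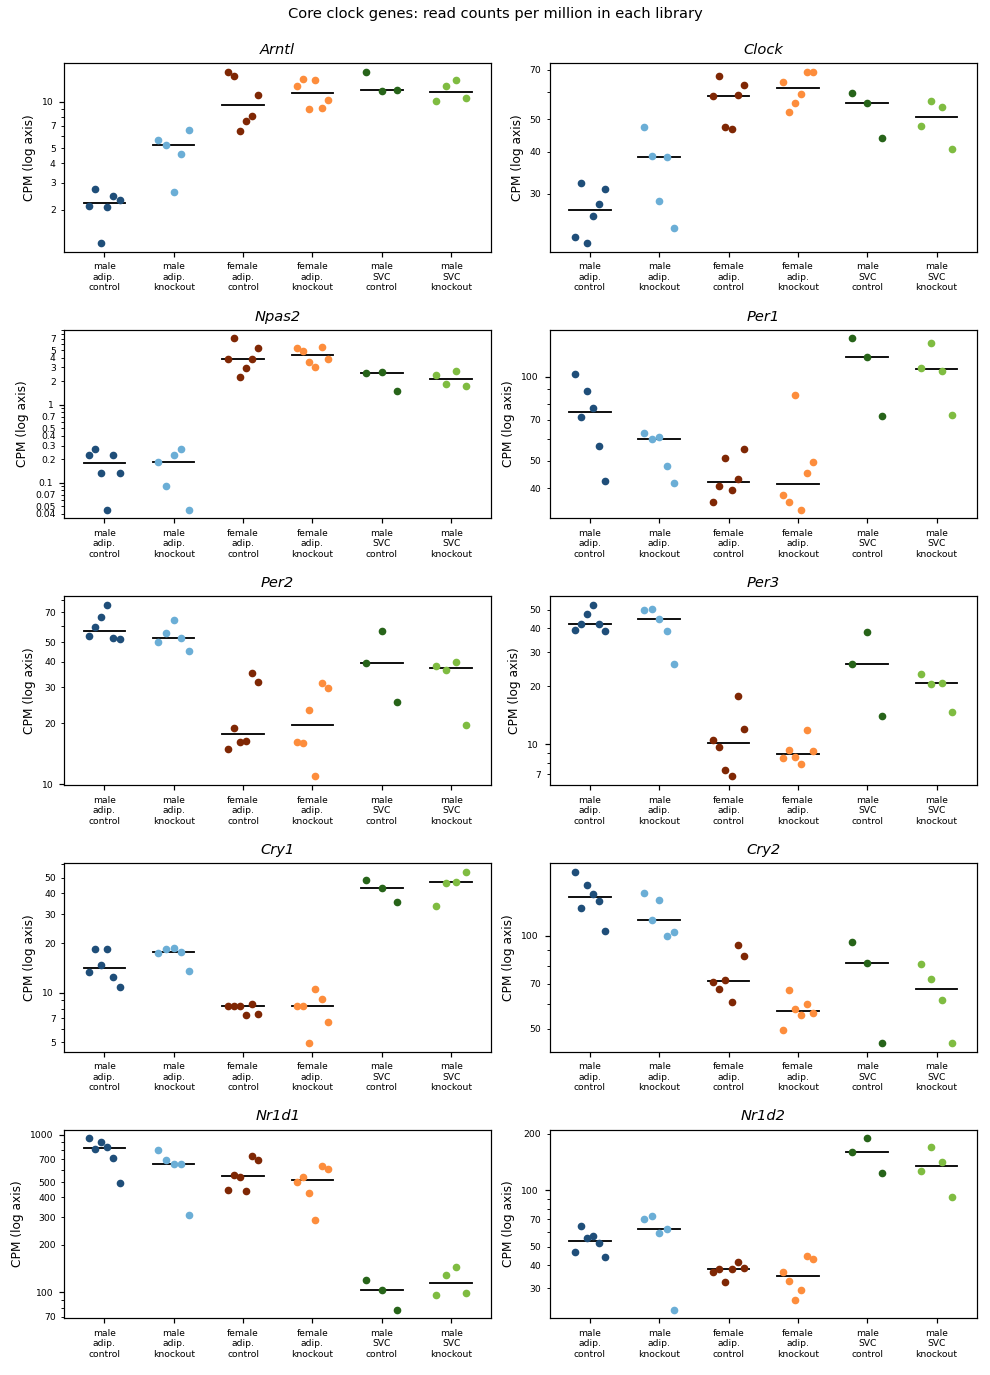
CPM of the library total (log axis, its range differing between panels) of the 10 clock genes; each point is 1 library and the bar is the group median. Arntl in male adipocytes runs from 1.22 to 2.72 CPM in controls and from 2.62 to 6.55 CPM in knockouts, and Npas2 lies at or below 0.272 CPM in every male adipocyte library.

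The first comparison asked whether the knockout label went with a change of the clock in male adipocytes. Arntl, the activator without which the loop stops, had the largest estimate. Its level was 2.13, 2.72, 1.22, 2.09, 2.45 and 2.30 CPM in control replicates 1 to 6 and 5.70, 5.26, 2.62, 4.58 and 6.55 CPM in knockout replicates 1 to 5. Knockout 3 alone fell within the control range, just under control 2, and the other 4 knockouts lay above every control, so the groups overlapped in that 1 library. The mean was 2.15 ± 0.513 CPM (SD, n = 6) in controls and 4.94 ± 1.48 CPM (n = 5) in knockouts, and the fitted difference of 1.17 on the log2 scale (SE 0.25) missed the threshold of 0.05 after adjustment over all genes tested (adjusted p = 0.0700, edgeR). The rank of Arntl by p was 16 among 14227 genes. It passed without control 2 (adjusted p = 0.0396), knockout 3 (0.0161) or knockout 5 (0.0408), without control 6 and knockout 5 together (0.0472), with DESeq2 (0.00334) and with the replicate block (0.0149). These were 6 of 21 alternatives, and in the other 15 it did not pass. Of the 11 edgeR fits that left out 1 library, 3 called it, and the highest adjusted p among the 11 was 0.183.

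None of the 10 members was called in males (0 of 10; edgeR called 0.0703% of all genes tested). Without adjustment 2 members, Arntl and Clock, had p below 0.05, as had 13.1% of all genes, and DESeq2 called 1, Arntl. All 10 overlapped between the genotypes, where 1.77% of all genes did not. Clock, the partner of ARNTL, was 22.4, 32.3, 21.4, 25.9, 27.9 and 31.0 CPM in controls and 47.4, 38.9, 28.6, 38.5 and 23.7 CPM in knockouts (log2 0.37, SE 0.15, adjusted p = 0.296). Knockouts 1, 2 and 4 were above every control, and knockouts 3 and 5 were within the control range. Npas2, the stand-in for Clock, was at 1 to 6 reads per library in both genotypes, too few to show a difference of this size (log2 -0.12, SE 0.51, adjusted p = 0.948).

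The repressors of the loop had estimates of either sign in males, and none passed. Per1, a period gene that also answers to acute stimuli, was 102, 72.0, 89.0, 77.3, 56.6 and 42.5 CPM in controls and 63.1, 60.1, 61.1, 48.1 and 41.8 CPM in knockouts (log2 -0.46, SE 0.23, adjusted p = 0.397). All knockouts lay below controls 1 to 4, and the overlap came from controls 5 and 6. Per2 (log2 -0.21, SE 0.26, adjusted p = 0.775) and Per3 (log2 -0.10, SE 0.20, adjusted p = 0.872), the other period genes, overlapped across most of their range. Cry1 (log2 0.19, SE 0.15, adjusted p = 0.614) and Cry2 (log2 -0.24, SE 0.13, adjusted p = 0.453), the cryptochromes that block the activator pair, had estimates of opposite sign.

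Nr1d1, which encodes REV-ERBα and represses Arntl, was 951, 811, 899, 840, 708 and 494 CPM in male controls and 800, 694, 655, 652 and 310 CPM in male knockouts (log2 -0.38, SE 0.23, adjusted p = 0.496). Control 6 and knockout 5 were the lowest of their groups, and without them the groups still overlapped. Its relative Nr1d2 was 44.1 to 64.3 CPM in controls (median 53.9) and 70.4, 72.9, 59.0, 62.0 and 23.1 CPM in knockouts (log2 0.07, SE 0.20, adjusted p = 0.918). Knockouts 1 and 2 were above every control and knockout 5 below every control. That knockout 5 was also the lowest of its group in Clock, Npas2, Per1, Per2, Per3 and Cry1 and the highest in Arntl. Nor was this library apart in the clock genes alone. Over genes in general, the chi-square per degree of freedom between its counts and those of another male knockout was 133 to 162. Between the other male adipocyte knockouts it was 12.9 to 34.6. Mesothelial markers, of the lining of visceral fat, were lower in all 6 estimates in male knockouts (median log2 -1.50, 0 called, summed level 4.92 to 21.5 CPM against 14.0 to 97.1 CPM in controls). Their part in the clock values was not tested.

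In female adipocytes 0 of 10 members were again called, beside 0.471% of all genes tested. At an unadjusted p below 0.05 there were 1 member and 10.3% of genes, and DESeq2 also called 0 members. The estimate of Arntl was smaller than in males, while those of Cry2 and Per3 were larger in size. Arntl was 15.6, 14.7, 6.5, 7.50, 8.10 and 11.1 CPM in control replicates 1 to 6 and 12.6, 14.1, 8.97, 13.9, 9.20 and 10.3 CPM in knockout replicates 1 to 6 (log2 0.19, SE 0.22, adjusted p = 0.816). The knockout values lay inside the control range. All 10 members overlapped, where 0.886% of genes did not. Cry2 had the smallest p: 70.9, 67.1, 72.2, 61.3, 93.5 and 86.2 CPM in controls and 49.6, 66.7, 58.2, 55.4, 60.2 and 56.3 CPM in knockouts (log2 -0.32, SE 0.13, adjusted p = 0.362). Knockout 2 was within the control range and the other 5 knockouts were below every control.

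The remaining 8 members differed between female genotypes by at most 0.18 on the log2 scale. Clock was at 0.18 (SE 0.14) and Npas2 at 0.12 (SE 0.25). Per1 stood at 0.18 (SE 0.22), where knockout 3 alone reached 86.0 CPM against 33.5 to 49.4 CPM in the other knockouts, and at -0.06 without it. Per2 (-0.02, SE 0.25), Per3 (-0.16, SE 0.20), Cry1 (0.06, SE 0.15), Nr1d1 (-0.12, SE 0.22) and Nr1d2 (-0.01, SE 0.19) had standard errors above or near their estimates. Macrophage markers moved with the female genotype: the sum of 9 such genes was 269 to 551 CPM in controls and 70.6 to 336 CPM in knockouts, the 9 single estimates were all negative and 1 was called (C1qc). Of 4 brown and beige markers 3 were called higher (summed level 17.4 to 119 CPM in controls and 110 to 254 CPM in knockouts). Mesothelial markers were negative in 6 of 6 estimates (median log2 -1.07) and epithelial markers in 2 of 2 (median log2 -3.12), with 0 called. The part of these cells in the clock values was not tested.

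The difference of the knockout effects between the sexes was then tested itself. For Arntl the female effect minus the male effect was -0.98 on the log2 scale (SE 0.33, adjusted p = 0.407), and for Per1 it was 0.64 (SE 0.32, adjusted p = 0.570). No member was called (0 of 10; 0.0141% of all genes; 1 member and 8.87% of genes at an unadjusted p below 0.05; DESeq2 also 0). The male and female effects on the clock were therefore not shown to differ.

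Averaged over both sexes with equal weight, Arntl was higher in the libraries labelled knockout by a log2 fold change of 0.68 with SE 0.16 (adjusted p = 0.0482, edgeR). Most of this mean came from the males, at 1.17 (SE 0.25). The female estimate of 0.19 was below its SE of 0.22. Arntl was the 1 member of 10 called, in a comparison that called 0.759% of all genes, 0.415% as higher. Of the 11 male and 12 female adipocyte libraries, 6 could each be left out with the call kept (male control 2 and knockout 3, female controls 1 and 2 and knockouts 3 and 6). Leaving out any 1 of male controls 1, 3, 4, 5 and 6, male knockouts 1, 2, 4 and 5, female controls 3, 4, 5 and 6 or female knockouts 1, 2, 4 and 5 ended it (adjusted p = 0.0525 to 0.103), while the estimate stayed between 0.62 and 0.76. It also ended with upper-quartile scaling (0.0535), no filter (0.0527), limma-voom (0.0923), no scaling factors (0.0700) and without male control 6 and knockout 5 together (0.0632). Beside it, mesothelial markers were negative in 6 of 6 estimates (2 called, median log2 -1.38) and macrophage markers in 9 of 9 (0 called, median log2 -0.51), and 1 of 4 brown and beige markers was called higher. Their part was not tested. Cry2 (log2 -0.28, SE 0.09, adjusted p = 0.153) and Clock (log2 0.27, SE 0.10, adjusted p = 0.202) followed.

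In male SVC no member was called (0 of 10; 0% of 16404 genes; 0 members and 2.62% of genes at an unadjusted p below 0.05; DESeq2 called 76 genes and 0 members). Arntl was 15.7, 11.7 and 12.0 CPM in controls and 10.1, 12.7, 14.0 and 10.5 CPM in knockouts (log2 -0.11, SE 0.20, adjusted p = 0.971), with the knockouts on both sides of 2 of the 3 controls. The largest estimates were those of Per3, 26.2, 38.4 and 14.0 CPM in controls and 23.2, 20.6, 20.9 and 14.8 CPM in knockouts (log2 -0.34, SE 0.31, adjusted p = 0.968), and of Nr1d1, 119, 103 and 77.5 CPM in controls and 96.5, 130, 144 and 99.3 CPM in knockouts (log2 0.28, SE 0.19, adjusted p = 0.968). All 10 members overlapped, where 3.88% of genes did not. Mesothelial markers were negative in 6 of 6 estimates there (median log2 -2.36, 0 called) and adipocyte markers positive in 8 of 8 (median log2 1.19, 0 called), and their part was not tested. The knockout effect on Arntl in adipocytes minus that in SVC was 1.25 on the log2 scale (SE 0.36, adjusted p = 0.603), with 0 of 10 members and 0% of 17251 genes called (1 member and 6.66% of genes at an unadjusted p below 0.05; DESeq2 called 22 genes and 0 members).

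**Figure D2:**
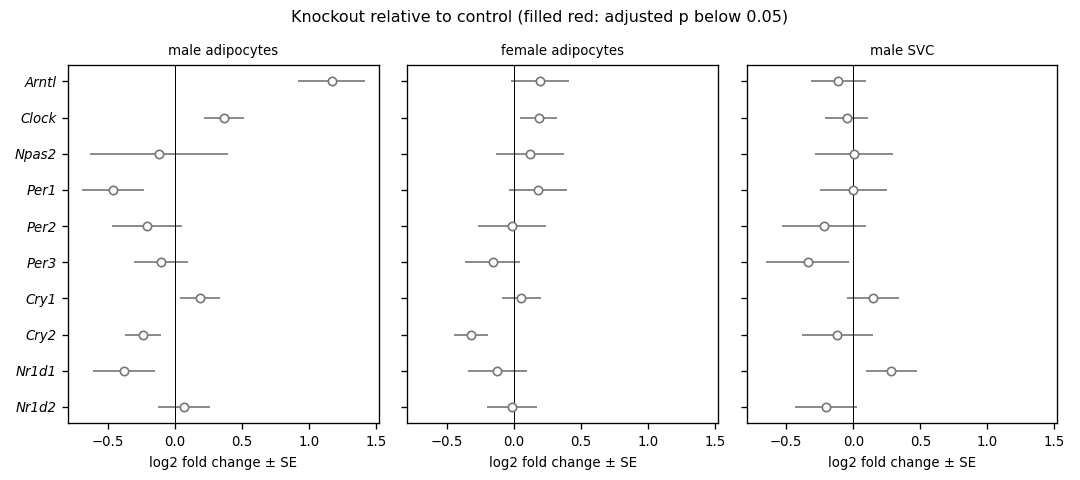
Log2 fold change of knockout relative to control for the 10 clock genes in male adipocytes, female adipocytes and male SVC, with standard errors; open points did not pass an adjusted p of 0.05 and no point is filled. Arntl in male adipocytes stands farthest from 0 at 1.17 with a standard error of 0.25.

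The wider clock pathway was counted from lists of related genes. In male adipocytes 0 of the 8 Arntl paralogue and outer-loop genes were called, 7 of 8 had negative estimates and 4 had an unadjusted p below 0.05, with a median of -0.40 beside 0.02 over all genes, of which 0.0703% were called and 13.1% had such a p. The list joins a paralogue of Arntl with outer-loop factors. Its gene of smallest p was Ciart, a repressor of the activator pair, at 6.04 ± 2.14 CPM in controls and 3.97 ± 1.12 CPM in knockouts (log2 -0.60, adjusted p = 0.277). In females 0 of 8 were called and 7 of 8 were negative, with a median of -0.34 beside 0.01 over all genes, of which 0.471% were called, and Nfil3, a repressor acting at D-boxes, had the smallest p (log2 -0.40, adjusted p = 0.397). The 12 kinases, ubiquitin ligases and the deubiquitinase that set the stability of clock proteins had 0 calls in either sex, as had the 8 corepressors and cofactors, the 3 clock-controlled enzymes, 13 immediate-early genes, which mark acute stimulation, and 8 genes induced by glucocorticoids, hormones that can reset the fat clock. The smallest p values among these in males were those of Fkbp5, a chaperone induced by glucocorticoids (log2 -0.64, adjusted p = 0.142), and Csnk2a1, a kinase subunit (log2 0.28, adjusted p = 0.209), and in females that of the transcription factor gene Jund (log2 -0.51, adjusted p = 0.0521).

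The sexes differed far more than the genotypes. Among control adipocytes 9 of the 10 members were called, where 43.8% of all 14227 genes were: 3 were higher in females and 6 lower, against 23.7% of all genes higher and 20.1% lower. The 3 activators were those higher in females. The median size of the difference over the members was 0.98 on the log2 scale, against 0.34 over all genes. The male and the female libraries were not stated to have been collected or sequenced together, so sex and any such difference, or one of depot, cannot be told apart.

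Arntl in control adipocytes was 6.5 to 15.6 CPM in females (median 9.59) and 1.22 to 2.72 CPM in males (median 2.22), without overlap (log2 2.28, SE 0.24, adjusted p = 1.27e-07). Clock was 46.7 to 67.2 CPM in females (median 58.6) and 21.4 to 32.3 CPM in males (median 26.9), again without overlap (log2 1.08, SE 0.14, adjusted p = 3.09e-06). Npas2, from 49 to 152 reads per library in females and from 1 to 6 in males, differed most, at 2.26 to 7.09 CPM (median 3.83) against 0.0453 to 0.272 CPM (log2 4.55, SE 0.35, adjusted p = 1.18e-09). The lowest female library was above the highest male library in each of these 3 genes.

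The period and cryptochrome genes were lower in female controls. Per3 was 6.81 to 17.8 CPM (median 10.1) in females and 38.6 to 52.9 CPM (median 42.2) in males (log2 -2.03, SE 0.20, adjusted p = 8.28e-08), and Per2 was 15.0 to 35.3 CPM (median 17.7) against 51.7 to 76.0 CPM (median 56.4; log2 -1.42, SE 0.25, adjusted p = 0.000121). Neither overlapped. Per1 was 35.6 to 55.2 CPM in females and 42.5 to 102 CPM in males (log2 -0.74, SE 0.22, adjusted p = 0.00889), and overlapped only through male control 6. Cry1 was 7.36 to 8.56 CPM against 10.9 to 18.4 CPM (log2 -0.89, SE 0.15, adjusted p = 4.65e-05), without overlap. Cry2 was 61.3 to 93.5 CPM against 103 to 161 CPM (log2 -0.83, SE 0.13, adjusted p = 1.93e-05), also without overlap.

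The REV-ERB genes had the smallest estimates between the sexes. Nr1d2 was 32.3 to 41.6 CPM in female controls and 44.1 to 64.3 CPM in male controls, without overlap (log2 -0.52, SE 0.19, adjusted p = 0.0289). Nr1d1 was 440 to 733 CPM in females and 494 to 951 CPM in males, overlapped, and missed the threshold (log2 -0.47, SE 0.22, adjusted p = 0.0880). It passed without male control 6 (adjusted p = 0.0327), female control 5 (0.0357) or female control 6 (0.0464). In all, 8 of 10 members did not overlap between the sexes, where 20.7% of all genes did not.

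Most genes of the outer-loop list were lower in females. Of the 8 Arntl paralogue and outer-loop genes, 1 was called higher (23.7% of all genes) and 5 lower (20.1%) in female controls (43.8% of all genes called in either direction). Those of smallest p were the D-box activators Hlf (21.5 ± 2.84 CPM in males, 5.42 ± 1.59 CPM in females, log2 -1.99, adjusted p = 6.67e-09), Tef (291 ± 59.7 and 72.9 ± 22.6 CPM, adjusted p = 1.11e-08) and Dbp (215 ± 49.3 and 20.9 ± 11.7 CPM, log2 -3.37, adjusted p = 2.60e-08). The promoter of Per3 shown above, with its D-box copies, belongs to the member that was lowest in females relative to males. Any part of these activators in the level of Per3 was not tested. All 3 clock-controlled enzymes were lower in females: Wee1, a cell-cycle kinase (log2 -1.85), Alas1 of haem synthesis (log2 -0.67) and Nampt of NAD synthesis (log2 -0.66).

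The counts of the other lists stand beside 43.8% of all genes called (23.7% higher and 20.1% lower). Among the regulators of clock protein stability 3 of 12 were higher and 4 lower, with Usp2, a deubiquitinase, at log2 -1.94 and the ubiquitin ligase genes Btrc at -0.73 and Fbxw11 at -0.48. Of the 8 corepressors and cofactors Timeless was higher (log2 1.03) and Hdac3 (-0.30) and Nono (-0.26) were lower. Rora was not called (log2 0.20, adjusted p = 0.257). Of 13 immediate-early genes 3 were higher, Dusp1 (log2 0.75) and Atf3 (0.80) among them, and Egr2 was lower (-0.75). Of 8 glucocorticoid-induced genes 4 were lower and 0 higher: Fkbp5 (log2 -2.92; 132 ± 28.8 CPM in males, 17.5 ± 5.32 CPM in females), Tsc22d3 (-1.31), Mt1 (-0.72) and Mt2 (-0.70).

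Marker genes of other cells also differed between the sexes. The sum of 9 macrophage markers was 269 to 551 CPM in female and 568.4 to 1101 CPM in male controls, with 6 of 9 called lower. The sum of 7 preadipocyte and fibroblast markers was 749 to 1204 CPM in females and 412 to 598 CPM in males, with 4 of 7 called higher. Of 4 brown and beige markers 2 were called higher, with sums of 17.4 to 119 and 5.87 to 67.8 CPM. Summed adipocyte markers overlapped, at 31695 to 48790 and 31851 to 36277 CPM. The part of these cells in the clock values was not tested, and in bulk libraries fewer cells of a type and less RNA per cell cannot be told apart.

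In knockout adipocytes, a comparison added after seeing the data, 8 of 10 members were called between the sexes (34.6% of all genes), 3 higher in females (18.2% of genes) and 5 lower (16.5%). Npas2 (log2 4.78, SE 0.38), Arntl (1.30, SE 0.24) and Clock (0.89, SE 0.15) were higher. Per3 (-2.09, SE 0.21), Per2 (-1.23, SE 0.26), Cry1 (-1.02, SE 0.15), Cry2 (-0.92, SE 0.13) and Nr1d2 (-0.60, SE 0.20, adjusted p = 0.0208) were lower, the last not without male knockout 2 (adjusted p = 0.0569), with limma-voom (0.0552) or with the 2 groups alone (0.0835). Per1 (-0.10, SE 0.23, adjusted p = 0.761) and Nr1d1 (-0.21, SE 0.23, adjusted p = 0.495) were not called. In 7 of 10 members the sexes did not overlap, where 17.3% of all genes did not. Beside these, macrophage markers were lower in females in 9 of 9, brown and beige markers higher in 4 of 4 and preadipocyte markers higher in 4 of 7 (all called), and their part was not tested. These libraries are other than the controls above, and each comparison of the sexes shares a group with each comparison of the genotypes.

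The last comparison set adipocytes beside SVC in males. Its group means are CPM adjusted by TMM, a scaling that allows for the few very abundant adipocyte transcripts, and the median of all genes was still lower in adipocytes by 0.29 on the log2 scale in both genotypes. Among controls 9 of 10 members were called, where 77.1% of 17251 genes were, so the count is near the background. Of these 4 were higher in adipocytes (32.8% of genes) and 5 lower (44.2%). The median size over the members, 1.23 on the log2 scale, was below that over all genes, 1.42.

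Nr1d1, with Npas2, differed most between the fractions in controls, and the order of the pair turned with no scaling factors (2.97 against -3.65 for Npas2). Nr1d1 was 494 to 951 CPM in the 6 control adipocyte libraries and 119, 103 and 77.5 CPM in the SVC controls. With TMM the means were 909 ± 195 CPM (SD, n = 6) and 78.4 ± 7.82 CPM (n = 3), a difference of 3.54 on the log2 scale (SE 0.30, adjusted p = 1.18e-08). Its relative Nr1d2 went the other way, at 44.1 to 64.3 CPM in adipocytes and 161, 189 and 124 CPM in SVC (log2 -1.01, SE 0.26, adjusted p = 0.00202). Neither gene overlapped between the fractions.

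Cry1 and Cry2 also had opposite signs. Cry2 was higher in adipocytes (155 ± 24.6 against 57.4 ± 14.7 CPM, log2 1.43, SE 0.22, adjusted p = 1.54e-05) and Cry1 lower (17.0 ± 3.37 against 33.3 ± 1.27 CPM, log2 -0.97, SE 0.16, adjusted p = 2.83e-05). Per3 (log2 1.32, SE 0.25, adjusted p = 0.000167) and Per2 (log2 1.14, SE 0.24, adjusted p = 0.000437) were higher in adipocytes. Per1 was level with TMM (85.0 ± 25.5 and 84.9 ± 17.1 CPM, log2 0.00, SE 0.25, adjusted p = 0.997) but lower in adipocytes by 0.58 with the library total as the scale (adjusted p = 0.0416).

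The activators were lower in male adipocytes than in SVC. Arntl was 1.22 to 2.72 CPM in adipocytes and 15.7, 11.7 and 12.0 CPM in SVC (log2 -2.06, SE 0.25, adjusted p = 1.08e-06), and Npas2 was 0.0453 to 0.272 CPM and 2.57, 2.66 and 1.49 CPM (log2 -3.09, SE 0.42, adjusted p = 4.03e-06). Both were far from overlapping. Clock was lower by less (log2 -0.43, SE 0.19, adjusted p = 0.0415). That call ended without adipocyte control 1, 3, 4 or 5 or SVC control 1, 2 or 3 (adjusted p = 0.0511 to 0.110), and with a block by column number (0.142). Female adipocytes, for which no SVC were analysed here, had Arntl at 6.5 to 15.6 CPM, a range that takes in male SVC controls 2 and 3.

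Among the libraries labelled knockout 8 of 10 members were called between the fractions (76.5% of genes), 4 higher in adipocytes (31.8%) and 4 lower (44.7%). Nr1d1 was again higher (log2 2.84, SE 0.26), with Per3 (1.51, SE 0.24), Cry2 (1.26, SE 0.20) and Per2 (1.09, SE 0.22). Npas2 (-3.26, SE 0.43), Cry1 (-0.95, SE 0.15), Arntl (-0.82, SE 0.25, adjusted p = 0.00614) and Nr1d2 (-0.79, SE 0.25) were lower. Clock (-0.06, SE 0.18) and Per1 (-0.50, SE 0.24, adjusted p = 0.0619) were not called, though Per1 was without adipocyte knockout 1 (adjusted p = 0.0476) or SVC knockout 4 (0.0113), and with a block by column number (0.0445). Without overlap were 8 of 10 members in controls (74.7% of genes) and 9 of 10 in knockouts (62.8%).

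In controls 4 of the 8 Arntl paralogue and outer-loop genes were called higher in adipocytes (32.8% of genes) and 2 lower (44.2%). This is near the background, where 77.1% of genes were called in either direction. The median size over the list, 0.72 on the log2 scale, was below that over all genes, 1.42. The listed genes of smallest p were Dbp (249 ± 56.7 against 45.9 ± 10.9 CPM, log2 2.44, adjusted p = 4.45e-07), Nfil3 (log2 1.80) and Tef (log2 1.61). Rora, an activator that competes with the REV-ERB repressors, was lower in adipocytes (29.1 ± 5.62 against 65.2 ± 17.9 CPM, log2 -1.17).

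**Figure D3:**
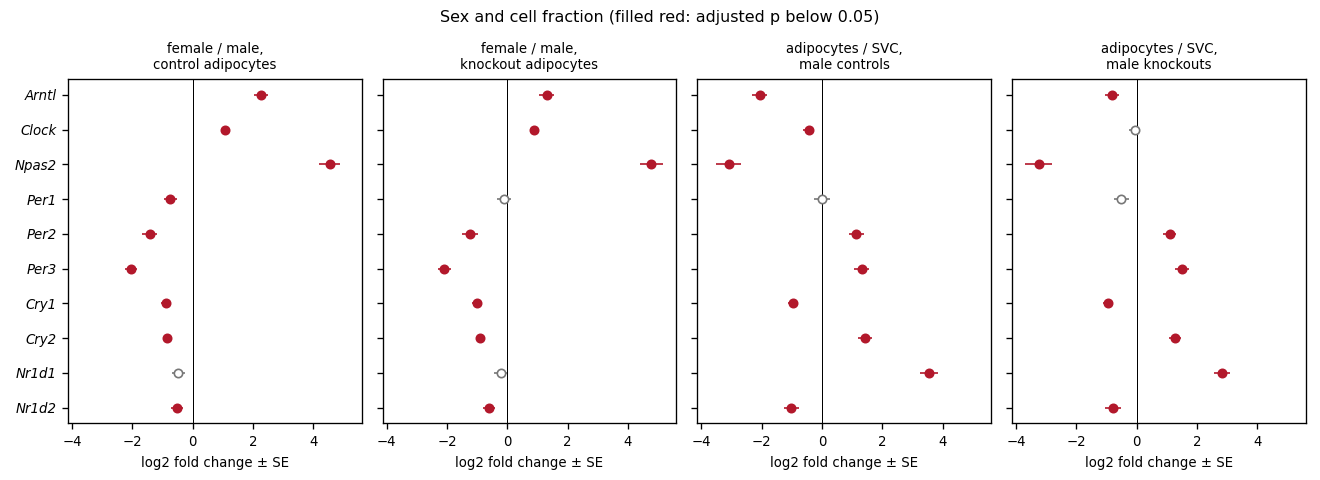
Log2 fold change with standard error of the 10 clock genes between the sexes, in control and in knockout adipocytes, and between adipocytes and SVC, in male controls and knockouts; filled red points passed an adjusted p of 0.05. Arntl, Clock and Npas2 lie right of 0 in females relative to males, while Nr1d1 and Nr1d2 lie on opposite sides of 0 between the fractions, at 3.54 and -1.01 in controls.

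Whether the members varied together within groups was read from deviations of log2 CPM from the group mean over the 23 adipocyte libraries. Of the 9 pairs with Arntl, that with Per1 was strongest (Pearson r = -0.46, permutation p = 0.0179, adjusted p = 0.161; Spearman rho = -0.49, adjusted p = 0.219; permutation tests two-sided, adjusted over the 9 pairs). It was -0.42 without male control 3 and male knockout 3, the 2 libraries farthest from the median of Arntl, and negative within each of the 4 groups, from -0.82 to -0.31. With Clock r was 0.36 (permutation p = 0.160, adjusted p = 0.479), positive in 3 groups and -0.38 in female knockouts. With Nr1d1, the repressor of Arntl, r was -0.27 (permutation p = 0.253, adjusted p = 0.568). None of the 9 pairs passed adjustment. Pairs among the other members were described without a test, and some ran closely together. They lay between r = -0.14 (Per1 with Cry1) and r = 0.79 (Nr1d1 with Nr1d2). Per3 with Nr1d1 was at 0.74, Per2 with Per3 at 0.72 and Clock with Per1 at -0.05.

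Over the same deviations the genes most like Arntl among 11321 with a mean of at least 1 CPM were Cyp2r1 (r = 0.84), which encodes a vitamin D 25-hydroxylase, Lactb2 (0.79), Baiap2l1 (0.74), Sc5d (0.74), an enzyme of cholesterol synthesis, and Megf9 (0.74). Among the least like were Paf1 (r = -0.79), a transcription elongation factor, Mepce (-0.78), Psap (-0.76), the precursor of the lysosomal saposins, and Tmbim1 (-0.75). These are descriptions over 23 libraries that share their processing, without a test. Of the clock pathway the extremes were Prkaa2 (0.64), a catalytic subunit of AMP-activated kinase, and Dbp (-0.57).

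Female libraries of the same replicate number were compared after seeing that their clock values ran alike. Per3 had the highest correlation between control and knockout over the 6 numbers (r = 0.91, exact two-sided permutation p = 0.0125, adjusted p = 0.125 over 10 genes; rho = 0.83), followed by Nr1d2 (r = 0.85, exact permutation p = 0.0375, adjusted p = 0.181), Per2 (r = 0.80, exact permutation p = 0.0653, adjusted p = 0.181) and Nr1d1 (r = 0.74, rho = 0.94, exact permutation p of r = 0.0722, adjusted p = 0.181). None passed adjustment. Numbers 5 and 6 were highest in Per2 and Nr1d1 in both genotypes. Without the 2 libraries farthest from the median, r fell to 0.38 for Per3, 0.54 for Nr1d2, 0.16 for Per2 and 0.52 for Nr1d1. It also fell for Arntl, Clock, Npas2 and Cry1, and rose for Per1 (0.67 to 0.97) and Cry2 (0.30 to 0.33). With so few numbers left, what the relation rests on cannot be told. Nor was it confined to the clock genes. Over genes in general, female libraries of the same number also deviated together in 5 of 6 pairs, with a correlation above 0.1. The median was 0.37, against -0.08 for other numbers. The labels do not say what a replicate number stands for.

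**Figure D4:**
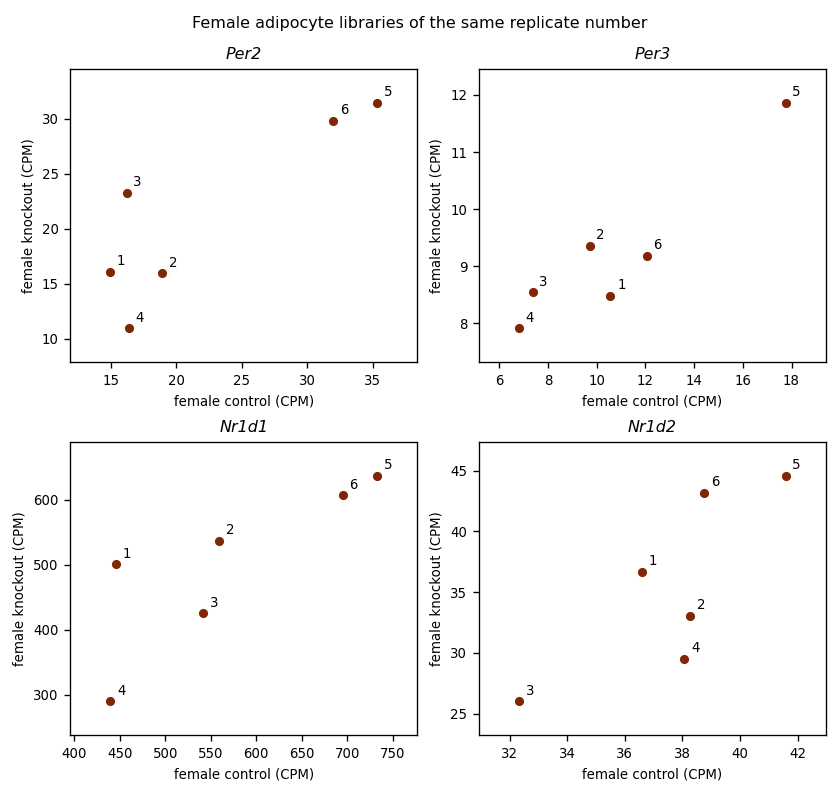
CPM of the library total of Per2, Per3, Nr1d1 and Nr1d2 in female control adipocytes (horizontal) and in the female knockout adipocytes of the same replicate number (vertical); each point is a number, printed beside it. Number 5 is highest in both genotypes in all 4 genes, at 17.8 and 11.9 CPM for Per3.

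Adipocytes and SVC whose columns carried the same genotype and number could be matched for 6 numbers in males. The correlation between the fractions ran from -0.72 for Clock to 0.68 for Cry1, and none of the 10 genes passed (lowest adjusted p = 0.447, exact two-sided permutation test).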

How the data were processed

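RNA of 30 mouse libraries was sequenced strand-specifically, per the labels' protocols. The authors deposited a table of read counts per gene, whole numbers and not normalized, and a table they named DESeq2 regularised values, on the log2 scale, of which only the members were copied beside their counts and nothing was tested. The build mm39, DESeq2, STAR 2.7.11a and FastQC 0.12.1 are named per the submitters' processing notes, while the program that counted the reads, its strand setting and its annotation are not named. Each per-sample column was mapped, with 0 others.

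Members were matched by symbol and Ensembl ID. Counts were tested with the quasi-likelihood test of edgeR 4.0.16 in R 4.3.3 (TMM, filterByExpr with minimum count 10, robust). P-values were adjusted by Benjamini-Hochberg over every gene in a fit and called below 0.05. The 23 adipocyte, 7 SVC and 18 male libraries were fitted separately, so the sexes and fractions share groups between comparisons. Per-library levels are CPM of the library total, and means in pathway lists and fractions are adjusted by TMM. Exon lengths per kilobase came from GENCODE M21 (GRCm38). Correlations used log2 TMM-adjusted CPM with about 0.5 added to each count, and 100000 permutations within groups, or all orders of 6 pairs. Adipocyte and SVC knockouts of the same column number deviated together (3 of 3 pairs, correlations 0.205 to 0.304), which pairs them by the criterion used, every pair above 0.1. The fits between the fractions nevertheless treated these libraries as independent, except where a block by column number is named. The edgeR fit was tested on simulated counts, for knockout against control in male adipocytes.

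Members, lists and named genes were chosen with earlier results of these data known. All members were named in each comparison; of each list up to 3 called genes of smallest adjusted p, or the gene of smallest p; and the 5 genes most and least like Arntl. Some genes that these rules name are not reported here. Mt2 was named beyond this rule, after its value was seen. Alternatives were DESeq2 1.42.0, limma-voom (limma 3.58.1), different scalings and filters, the 2 groups alone, replicate blocks and leaving out each library. Fits without scaling factors, without both male adipocyte libraries of column number 6, and with matched numbers alone, the comparison of sexes in knockouts, and the correlation over female numbers were added after seeing the data. No source says that replicates were separate mice, so p-values measure the spread between these libraries.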

Additional observations from a re-analysis of the deposited data

Results flagged for a closer look

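Of 50 sets of 1 gene in 1 group of 4 to 6 libraries, 5 had a single library far from the others by Dixon's criterion, which chance flags in about 1 of 20 sets. Per1 was 86.0 CPM in female knockout 3, above the next value of 49.4 CPM. Per3 was 11.9 CPM in female knockout 5, above 9.36 CPM. Per2 was 19.7 CPM in SVC knockout 4, below 36.5 CPM. In male adipocyte knockout 5, Cry1 was 13.5 CPM, below 17.5 CPM, and Nr1d2 was 23.1 CPM, below 59.0 CPM. Both SVC knockout 4 and male adipocyte knockout 5 were also apart from their groups over genes in general. The chi-square per degree of freedom between counts was 203 to 272 for SVC knockout 4 with another SVC knockout. Between the other SVC knockouts it was 27.6 to 76.2.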

How the results depend on the processing

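Of 2269 alternative fold changes of members, 2213 stayed on their side of the threshold, 35 lost and 20 gained a call, and 1 changed sign with a call: Per1 between fractions in controls, at -0.58 with no scaling factors. Of the alternative values not called, 126 changed sign. Counts of all genes called moved as follows. DESeq2 gave 159 in males against 10, 206 in females against 67, 23 against 2 for the difference of the sexes' effects, 350 against 108 for their mean, 76 against 0 in SVC and 22 against 0 for the difference of the fractions' effects. Without both male adipocyte libraries of column number 6 (control 6 and knockout 5) the counts were 302 in males, 12 for the difference and 251 for the mean. With the 2 groups alone they were 6 in males and 26 in females, and with no filter 1 for the difference. Called members were 1 against 0 in males with DESeq2, without that pair (Arntl adjusted p = 0.0472) and with the replicate block. In the mean of both sexes they were 0 against 1 with upper-quartile scaling (Arntl adjusted p = 0.0535), no filter (0.0527), limma-voom (0.0923), no scaling factors (0.0700) and without that pair (0.0632). Nr1d2 between the sexes in knockouts lost its call with limma-voom (0.0552) and with the 2 groups alone (0.0835). Leaving out 1 library each, counts of genes ran from 4 to 332 in males, 32 to 89 in females, 0 to 22 for the difference, 60 to 246 for the mean, 0 to 1 in SVC and 0 to 1 for the fractions' difference, and counts of members from 0 to 1 in males and 0 to 1 in the mean. They ran from 9 to 10 members between the sexes in controls, 7 to 8 in knockouts, 8 to 9 between fractions in controls and 8 to 9 in knockouts. Without scaling factors the split of higher and lower calls became 36 and 53 in females against 46 and 21, 1807 and 3108 between the sexes in knockouts against 2584 and 2341, 3809 and 9735 between fractions in controls against 5661 and 7632, and 3917 and 9555 in knockouts against 5487 and 7712, and the median of all genes between fractions moved to -0.85 and -0.75. Upper-quartile scaling gave 1 and 8 in males against 3 and 7. Except where the setting itself uses fewer libraries or genes, the cause was not tested.

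The replicate block joins controls and knockouts of the same replicate number, which is not always the same column number. In every such SVC pair the column numbers differ, and male adipocyte replicate 5 joins control column number 5 with knockout column number 6. Pairs of the same replicate number did not all deviate together: their correlation was above 0.1 in 1 of 5 pairs of male adipocytes (median -0.06), 5 of 6 of females (median 0.37, against -0.08 for other numbers) and 2 of 3 of SVC. It was above 0.1 in 2 of 3 control pairs of adipocytes and SVC by column number. With the replicate block 17 genes were called in males, Arntl among them (adjusted p = 0.0149), 1 for the difference, 180 for the mean and 1 in SVC. In females 0 members were called with this block, as with every other alternative. A replicate block by column number between fractions ended the call of Clock in controls (0.142) and gave one of Per1 in knockouts (0.0445).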
